A study of Saccharomyces cerevisiae with 24 samples.

Results

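RNA of a Saccharomyces cerevisiae strain whose phosphatidylserine decarboxylase Psd1 cannot mature was compared with RNA of a control strain carrying working Psd1, both grown in rich medium with choline. The mutant group (LGC) and the control group (WTC) have 3 libraries each, 6 of the 24 libraries of the series. Their counts come from a pair of deposited tables and were joined by gene identifier. Both tables list 6556 genes, of 6814 in any table of the series, and 6175 had enough counts to be tested. The background strain is GA74-1A, and in both groups the chromosomal PSD1 and PSD2 genes are deleted. The mutant carries Psd1-LGS/AAA, in which the LGS motif at which Psd1 cuts itself was changed to alanines. The labels state that the change blocks autocatalysis and that this enzyme does not rescue the need of a psd1 psd2 double mutant for ethanolamine. The control carries Psd1-3XFLAG, subcloned in the pRS305 plasmid and described as functional. Cultures of both groups grew in YPD with 2 mM choline to an OD600 between 0.5 and 0.7. The labels do not say whether the 3 replicates of a group were separate cultures, so p-values measure only the spread between these libraries. Nor do they say whether a strain is 1 clone.

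Phosphatidylethanolamine (PE) is a major phospholipid of yeast membranes, and Psd1 makes it from phosphatidylserine at the mitochondrial inner membrane. Yeast can also make PE from ethanolamine through the Kennedy pathway, and it can make phosphatidylcholine (PC) either by methylating PE or from choline. Choline can therefore feed PC synthesis without PE, but it is no precursor of PE. The strain difference in choline addresses what changes in the transcriptome when Psd1 is inactive and a precursor of PC, but not of PE, is supplied.

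The libraries hold 17606270 to 19710719 counts over genes in LGC, against 16189214 to 19774666 in WTC. Replicate 3 of each group stood apart from the other 2. Between replicates 1 and 2, 22 of 6175 genes in LGC and 21 in WTC were at least 2-fold apart. In pairs with replicate 3, 499 and 500 genes were that far apart in LGC, against 152 and 132 in WTC. A chi-square of the counts, near 1 per gene if only counting noise separated the libraries, was 3.87 (LGC) and 3.78 (WTC) for replicates 1 and 2. For pairs that include replicate 3 it was at least 194 and at most 234. Replicates 1 and 2 were more alike than the third library of the same group, though not within counting noise. That does not tell whether they came from separate cultures, and the main test counts them as separate samples. Levels are given as CPM, a gene's counts per 1000000 counts of its library, with library sizes scaled by the TMM method. They are shares of a library, so a lower share and less RNA per cell cannot be told apart.

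The mutant strain differed from the control at many genes. A gene is said to be called where the quasi-likelihood F test of edgeR gave an adjusted p (Benjamini-Hochberg, over all genes tested) under 0.05. Of 6175 genes, 1027 (16.6%) were called between LGC and WTC: 599 rose (9.7%) and 428 fell (6.93%), 310 of them by at least 2-fold. With the replicate number as a block, 1288 genes (20.9%) were called, 615 higher and 673 lower. The excess of rises did not hold in that fit, and the labels do not say whether libraries of equal number are pairs. Among listed genes, 33 of 39 nuclear genes of oxidative phosphorylation and 8 of 9 of arginine synthesis were called lower in the mutant. Called higher were 10 of 17 genes of the multidrug network, 10 of 20 of endoplasmic reticulum (ER) folding, and the inositol synthesis gene INO1. The count of calls rests on treating replicates 1 and 2 as separate samples. With both summed into 1 library, so that each group has 2, edgeR called 0 of 6248 genes (935 at an unadjusted p under 0.05, smallest adjusted p 0.0742). Leaving out 1 library gave 171 calls (2.75%) without WTC replicate 2, 189 (3.04%) without WTC replicate 1, 332 (5.35%) without LGC replicate 2 and 337 (5.42%) without LGC replicate 1. It gave 1298 (20.9%; 606 higher, 692 lower) without WTC replicate 3 and 2248 (36.2%) without LGC replicate 3. Stable calls are those also made in each of the 6 fits and after blocking on replicate number: 160 genes (2.59%), 91 higher (1.47%) and 69 lower (1.12%). The summed fit is not part of this definition, and none of the stable calls was made in it.

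**Figure D1:**
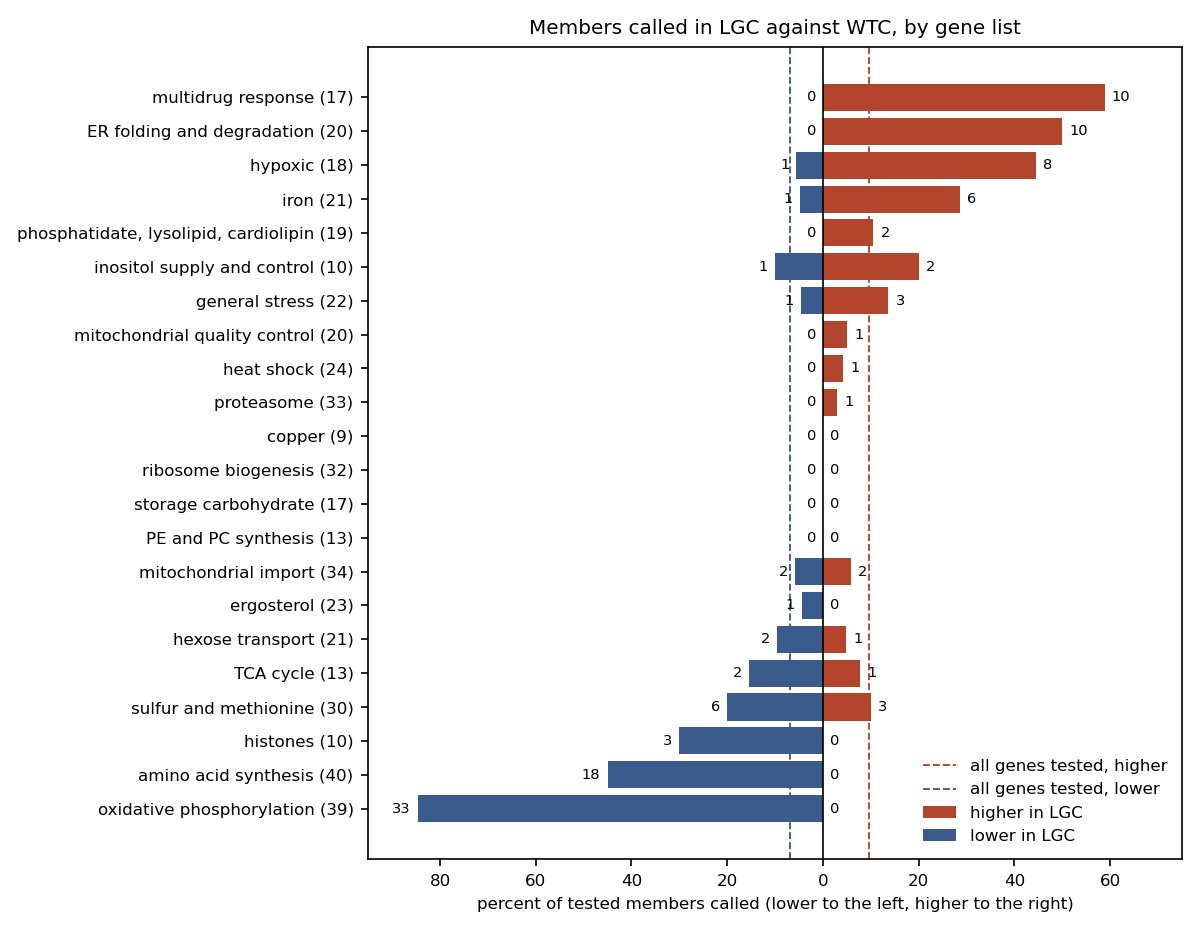
Percent of the tested members of 22 gene lists called higher (to the right) or lower (to the left) in LGC against WTC, with the number of called members at each bar and the number tested in parentheses. The dashed lines mark the share over all genes tested, 9.7% higher and 6.93% lower, which the oxidative phosphorylation list (33 of 39 lower) and the multidrug list (10 of 17 higher) passed by the widest margins among these lists.

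PSD1 itself was examined first. PSD1 (YNL169C, chromosome XIV, 316169-317671) had 466, 452 and 862 CPM in LGC, against 617, 597 and 645 CPM in WTC. LGC replicate 3 was the highest and LGC replicates 1 and 2 the lowest of the 6, so the groups overlapped, and PSD1 was not called (log2 fold change -0.06 ± 0.26 SE, edgeR adjusted p 0.891). The gene overlaps YNL170W on the opposite strand, and the strandedness of the libraries is not given, so reads of the pair cannot be told apart. Counts per gene do not show the LGS/AAA change and so do not tell the alleles apart. Of 7 genes that often serve as strain markers, HIS3, LYS2 and URA3 were called lower in LGC (none of them a stable call, and HIS3 overlaps YOR203W) and none higher. Over all genes tested, 6.93% were called lower. LEU2, the selectable gene of pRS305, had 577, 586 and 1084 CPM in LGC, against 1489.8, 1477 and 1270.3 CPM in WTC (adjusted p 0.0614). Genes active in MATa cells were read in both strains, with a summed level of 2003, 2124 and 1967 CPM in LGC, against 3177, 3165 and 2811 CPM in WTC over 6 genes.

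Many pleiotropic drug response genes were raised in the mutant. This network exports toxic compounds and lipids from the cell under the zinc cluster activators Pdr1 and Pdr3. Of 17 listed members, 10 were called higher (58.8%) and 0 lower, against 9.7% higher among all genes, and 8 of the 10 were stable calls. The median log2 fold change of the 17 was 0.80, against 0.02 over all genes tested. Among them was PDR5 (YOR153W, chromosome XV, 619840-624375), which encodes the main multidrug ABC exporter of the plasma membrane. PDR5 had 2679, 2657 and 1598 CPM in LGC, against 313, 317 and 325 CPM in WTC. All 3 mutant libraries lay far above the control libraries, replicate 3 the least, and PDR5 rose by 2.86 ± 0.24 (log2, SE; adjusted p 0.00241). CIS1 (YLR346C, chromosome XII, 822287-822592) showed the highest fitted rise of the genes that met the naming rule. Its protein binds the import receptor Tom70 when mitochondrial import is impaired, and the gene is known to be induced through Pdr3. CIS1 had 46.5, 49.3 and 15.2 CPM in LGC, against 2.47, 2.75 and 2.81 CPM in WTC, with no overlap and with LGC replicate 3 below the other mutant libraries (log2 fold change 3.78 ± 0.47, adjusted p 0.00551).

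The upstream sequences of both genes hold the 8-base element bound by Pdr1 and Pdr3, and are shown because both genes were among the 10 of 17 members called higher. The letters TCCGCGGA and TCCGTGGA were searched on both strands in the 500 bases before the start codon. They occur in 13 of the 17 members' windows and in 9 of the 10 called members' windows, against 1.66% of 5728 such windows over the genome. The list was chosen as genes of the Pdr1 and Pdr3 network, so this excess follows from that choice and is no result of these data. The sequences are from the R64 genome, whose gene positions match those of the deposited tables for these genes, are written 5′ to 3′ along the gene's strand, and have the element in capitals. PDR5 (plus strand, chrXV:619340-619564) holds it 3 times and CIS1 (minus strand, chrXII:822880-822947) once.
PDR5: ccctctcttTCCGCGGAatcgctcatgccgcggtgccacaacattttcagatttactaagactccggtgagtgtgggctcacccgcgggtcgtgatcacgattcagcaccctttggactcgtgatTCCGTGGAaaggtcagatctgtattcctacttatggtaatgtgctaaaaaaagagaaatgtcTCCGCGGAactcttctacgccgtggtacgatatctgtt
CIS1: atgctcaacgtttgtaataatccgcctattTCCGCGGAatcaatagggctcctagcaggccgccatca

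Of the listed exporters PDR5, PDR10 and PDR15 were called, and SNQ2, YOR1, TPO1 and TPO4 were not. YPL088W, a putative aryl alcohol dehydrogenase gene, had 184, 191 and 205 CPM in LGC, against 58.4, 52.1 and 58.6 CPM in WTC (log2 fold change 1.78 ± 0.10, adjusted p 0.00125). PDR15, which encodes a close relative of Pdr5, had 555, 559.7 and 745 CPM in LGC, against 174, 188 and 225 CPM in WTC (1.66 ± 0.18, adjusted p 0.00361). These levels were at least 2-fold higher in every mutant library than in any control library. RTA1, ICT1, GRE2 and RSB1 rose by 1.40, 1.49, 1.82 and 1.18 on the log2 scale. Rsb1 moves sphingoid bases across the plasma membrane, Ict1 acylates lysophosphatidic acid and Gre2 is a methylglyoxal reductase. PDR3 itself had 232, 217 and 188 CPM in LGC, against 123, 119 and 149 CPM in WTC and was called (0.71 ± 0.13, adjusted p 0.0172), a call lost in 4 of the 6 fits without 1 library (adjusted p 0.101 without WTC replicate 2). PDR1 was not called (log2 fold change 0.22, adjusted p 0.414). SNQ2, another ABC exporter, had 1276, 1277 and 589.9 CPM in LGC, against 544, 544 and 817 CPM in WTC, so that the mutant replicates 1 and 2 were above, and replicate 3 below, the third control library (adjusted p 0.175). TPO4, a polyamine exporter gene, had a log2 fold change of -0.39 (adjusted p 0.051). The set's median difference between libraries of the same replicate number was 1.23, 1.23 and 0.34 for replicates 1, 2 and 3.

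**Figure D2:**
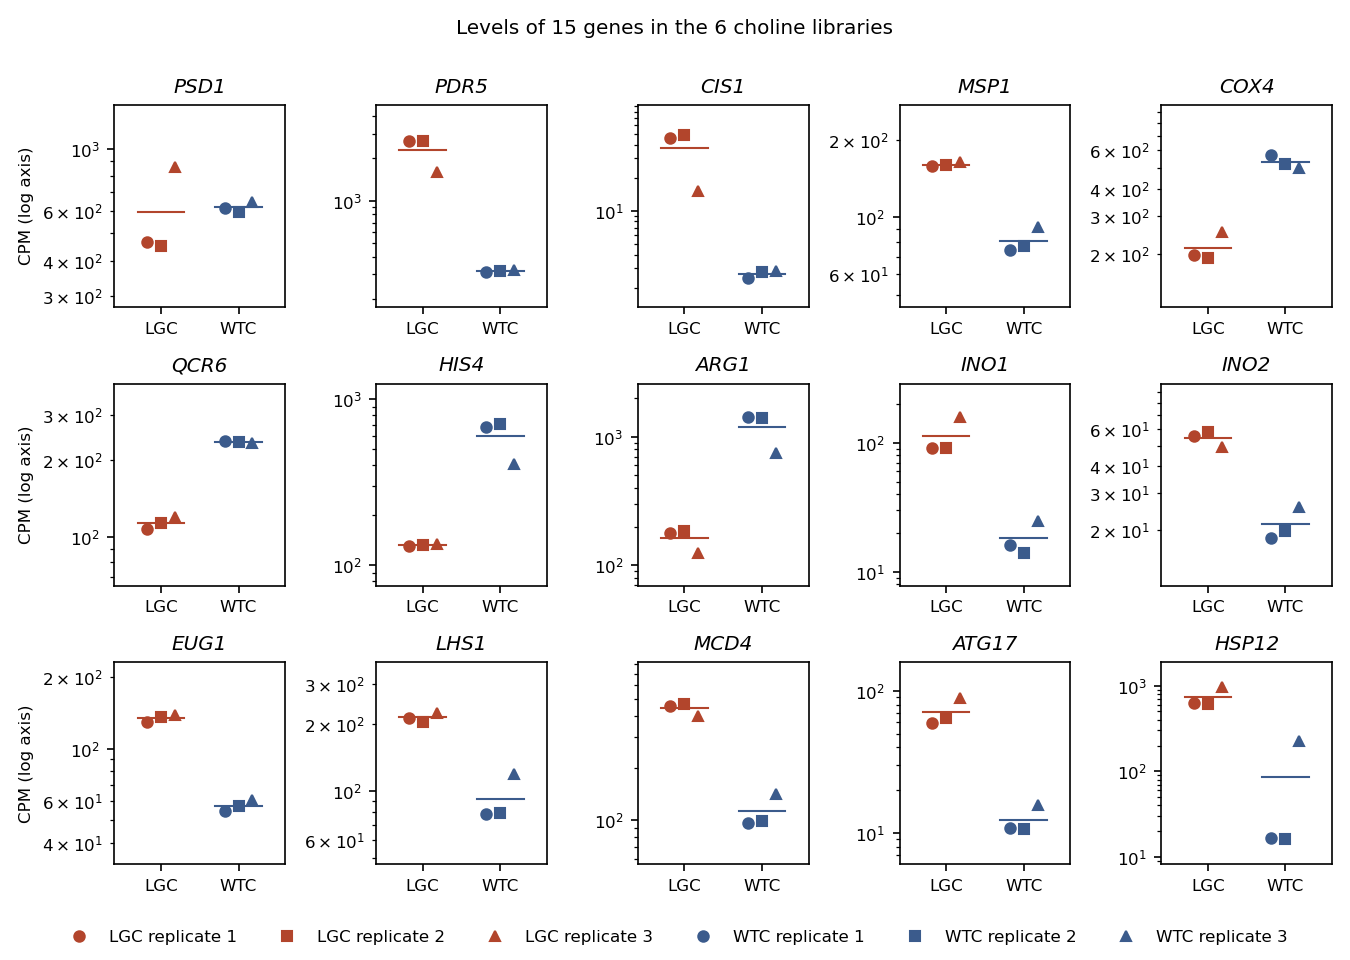
Level (CPM, log axis) of 15 genes in each of the 6 libraries, LGC left of WTC. Symbols mark the replicate number and the horizontal line the group mean; PDR5, CIS1, INO1 and MCD4 were higher in every LGC library than in any WTC library, COX4, QCR6, HIS4 and ARG1 lower, and HSP12 had 16.7, 16.1 and 223 CPM in WTC.

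MSP1, which encodes the outer membrane ATPase that extracts stalled or misplaced proteins and that Cis1 can recruit, was the member of the mitochondrial quality control list that was called. MSP1 had 158, 159 and 164 CPM in LGC, against 74.4, 77.6 and 91.4 CPM in WTC (log2 fold change 0.98 ± 0.11, adjusted p 0.0041, a stable call). The other 19 members, chaperones, proteases and prohibitins of the mitochondrion, were not called, so 1 of 20 (5.0%) was, below the 16.6% of all genes, but 7 were called higher without WTC replicate 3, 3 without LGC replicate 3 and 4 with the replicate block. HSP60, the chaperonin, had 5028, 4946 and 5818 CPM in LGC, against 2322, 2333 and 4221 CPM in WTC (adjusted p 0.0812), with WTC replicate 3 nearer to the mutant than to the other control libraries. Of 34 import genes, 2 were called higher and 2 lower (11.8%, below the 16.6% of all genes). Without LGC replicate 3 the counts were 7 and 2, and without WTC replicate 1 or 2, 1 of 34 was called, lower. MAS1, a subunit of the mitochondrial processing peptidase, rose by 0.79 ± 0.11 (adjusted p 0.00658) and MIA40, the oxidoreductase of intermembrane space import, by 0.64 ± 0.13 (adjusted p 0.0208). These calls were lost in 2 and 4 of the 6 fits without 1 library (adjusted p 0.0557 without WTC replicate 2 and adjusted p 0.122 without WTC replicate 2). TIM11 fell by 0.83 ± 0.11 on the log2 scale (adjusted p 0.0068, a stable call), although its product is subunit e of the ATP synthase and no import factor.

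Oxidative phosphorylation was the list with the highest share of called members. The listed genes are nuclear genes for subunits of complexes II, III and IV and of the ATP synthase, for its inhibitor and for cytochrome c. They serve the machinery that burns respiratory substrates in the inner membrane in which Psd1 sits. Of 39 members, 33 were called lower (84.6%) and 0 higher, against 6.93% lower among all genes tested. The median log2 fold change was -1.03, all 39 fitted values were below 0, and 14 of the calls were stable. Without 1 library 14 (WTC replicate 1 or 2), 18 (LGC replicate 1), 19 (LGC replicate 2), 32 (WTC replicate 3) or 38 (LGC replicate 3) were called, all lower. The groups did not overlap for 37 of the 39, against 39.5% of all genes. Their summed level was 8714, 8742 and 11377 CPM in LGC, against 19599, 19202 and 18404 CPM in WTC. Each mutant library thus held fewer of these transcripts than each control library, with LGC replicate 3 the nearest to the control.

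Called members were found in each complex. In complex III 8 of 9 members were called lower (median -1.02). One was QCR6 (YFR033C, chromosome VI, 224326-224769), a small acidic subunit with 107, 113 and 119.7 CPM in LGC, against 238, 234 and 232 CPM in WTC (log2 fold change -1.05 ± 0.09, adjusted p 0.00242). RIP1, which encodes the Rieske iron-sulfur protein, fell to 287, 291 and 375 CPM in LGC, against 794, 794 and 751 CPM in WTC (-1.29 ± 0.15, adjusted p 0.00435). Both genes were lower in all 3 mutant libraries than in any control library. In complex IV 8 of 10 were called lower (median -1.25), among them COX4 (YGL187C, chromosome VII, 149704-150171) with 197, 192 and 251 CPM in LGC, against 573, 521 and 497 CPM in WTC (-1.31 ± 0.15, adjusted p 0.0041) and COX9, which fell by 1.36 ± 0.13 (adjusted p 0.00258). COX5A and COX5B encode alternative forms of subunit 5, used with ample and with scarce oxygen. COX5A fell by 1.25 ± 0.15 (adjusted p 0.00546), whereas COX5B had 43.5, 44.00 and 70.3 CPM in LGC, against 52.7, 52.9 and 57.5 CPM in WTC and was not called (adjusted p 0.89).

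All 14 ATP synthase members, which include the gene of its inhibitor, INH1, were called lower (median -0.95). ATP1, the gene of the catalytic head's alpha subunit, overlapped by YBL100C on the opposite strand, had 728, 723 and 830.2 CPM in LGC, against 1727, 1643 and 1624 CPM in WTC (-1.13 ± 0.14, adjusted p 0.00521). ATP20, the gene of subunit g, which helps ATP synthase pair up in the membrane, had 49.1, 45.03 and 48.00 CPM in LGC, against 119.9, 117 and 91.4 CPM in WTC (-1.21 ± 0.13, adjusted p 0.00372). In both the 3 mutant libraries lay together below the control libraries. In complex II 2 of 4 were called lower, with SDH1, the flavoprotein gene, at -1.11 ± 0.15 (adjusted p 0.00621). Of the cytochrome c genes CYC1 fell by 1.03 ± 0.19 (adjusted p 0.0146; adjusted p 0.0808 without WTC replicate 2), and CYC7, its hypoxic form, was not called (adjusted p 0.347). COX26, a supercomplex-associated subunit, had the lowest fitted value of the list, -2.31 ± 0.91, yet was not called (adjusted p 0.126). Its mutant libraries were uneven at 1.11, 2.12 and 19.05 CPM, against 42.8, 38.6 and 29.2 CPM in WTC. Of 13 enzymes of the tricarboxylic acid cycle, KGD2 and CIT1 were called lower and LSC2 higher (23.1%, against 16.6% of all genes), and the median was -0.33. With the replicate block 6 were called lower and 1 higher, without LGC replicate 3, 7 and 1, and without WTC replicate 3, 3 and 1. Without WTC replicate 1 or 2 or LGC replicate 1 or 2, at most 2 were called lower and 0 higher. LSC2 was called in 2 of the 6 fits without 1 library (adjusted p 0.121 without WTC replicate 2).

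Genes of amino acid synthesis were also lower in the mutant. Many of these genes answer to Gcn4, the activator of general amino acid control, whose own translation rises when amino acids run short. The list also holds GCN4 itself and CHA1, a gene of serine and threonine breakdown, and both were called lower. Of 40 listed genes 18 were called lower (45.0%) and 0 higher, against 6.93% lower among all genes tested. The median log2 fold change was -0.64, and 8 of the calls were stable. With the replicate block 28 were called, all lower. Without 1 library 8 (WTC replicate 1 or 2), 13 or 14 (LGC replicate 2 or 1), 22 (LGC replicate 3, with 2 higher) or 24 (WTC replicate 3) were called lower. Their summed level was 9898, 9814 and 7329 CPM in LGC, against 18889.6, 18670.3 and 13708 CPM in WTC. The arginine pathway accounted for 8 of the 18, of 9 members (median -1.82). ARG1 (YOL058W, chromosome XV, 219211-220473), the argininosuccinate synthetase gene, had 178, 184 and 125 CPM in LGC, against 1428, 1401 and 749 CPM in WTC. It showed the largest fitted fall by the naming rule, -2.88 ± 0.30 (adjusted p 0.00361), with WTC replicate 3 below the other control libraries but above every mutant library. ARG5,6 (YER069W), which encodes a precursor of paired mitochondrial enzymes of ornithine synthesis, had 94.8, 95.7 and 82.3 CPM in LGC, against 548, 555 and 345 CPM in WTC (-2.41 ± 0.21, adjusted p 0.00242). It is overlapped by YER068C-A on the opposite strand. ARG3, ARG4 and ARG7 had log2 fold changes of -2.25, -1.84 and -1.34, all stable calls.

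In the histidine pathway 3 of 6 were called lower, in the lysine pathway 3 of 7, in branched-chain synthesis 2 of 10, and of the serine and glycine genes 1 of 7. Among all genes tested 6.93% were called lower. HIS4 (YCL030C, chromosome III, 65934-68333), whose product carries out several steps of histidine synthesis, had 131, 133 and 135 CPM in LGC, against 679, 708 and 407 CPM in WTC (-2.17 ± 0.22, adjusted p 0.0034). The mutant values were nearly equal to one another and lay below every control value. LYS20, a homocitrate synthase gene, and ILV6, the regulatory subunit gene of acetolactate synthase, fell by 1.74 ± 0.33 (adjusted p 0.0161; adjusted p 0.0779 without WTC replicate 2) and by 1.17 ± 0.16 (adjusted p 0.00658). CHA1, which encodes the deaminase that breaks down serine and threonine, was the serine gene called, with 17.8, 19.3 and 17.98 CPM in LGC, against 60.6, 63.5 and 46.3 CPM in WTC (-1.63 ± 0.14, adjusted p 0.00242). DIP5, the permease of acidic amino acids, fell by 2.12 ± 0.29 (adjusted p 0.00658). GCN4 itself had 1104, 1079.6 and 1082 CPM in LGC, against 2321, 2270.0 and 1531 CPM in WTC (-0.91 ± 0.20, adjusted p 0.0254), a call lost in 4 of the 6 fits without 1 library (adjusted p 0.126 without WTC replicate 2). Gene counts do not show how much Gcn4 protein was made.

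The upstream regions of HIS4 and ARG1 are shown because they hold repeats of the Gcn4 site in this group of falling genes. The letters TGACTC were searched on both strands in the 500 bases before the start codon. They occur in 29 of the 40 members' windows and in 15 of the 18 called members' windows, against 13.0% of 5728 windows. Because many listed genes are known to answer to Gcn4, this excess follows from the choice of genes and is no result of these data. The site is in capitals, and reads GAGTCA where it lies on the other strand. HIS4 (minus strand, chrIII:68497-68618) holds it 3 times and ARG1 (plus strand, chrXV:218836-218972) 2 times.
HIS4: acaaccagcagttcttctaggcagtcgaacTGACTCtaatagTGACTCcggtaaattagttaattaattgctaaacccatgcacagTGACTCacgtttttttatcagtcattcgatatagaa
ARG1: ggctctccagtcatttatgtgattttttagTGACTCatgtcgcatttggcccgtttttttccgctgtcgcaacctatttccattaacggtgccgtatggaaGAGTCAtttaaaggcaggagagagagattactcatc

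Phospholipid synthesis was examined as the pathway next to Psd1. Of the 14 listed genes of the CDP-diacylglycerol and Kennedy routes, 13 were tested and PSD2 was not. Of the 13, edgeR called 0 (3 at an unadjusted p under 0.05), against 16.6% of all genes tested, and DESeq2's Wald test called 0. Without WTC replicate 3, 1 was called higher, and without LGC replicate 3, 1 higher and 1 lower. A count of 0 among 13 genes does not show that they were unchanged. Their log2 fold changes ran from -0.31 for HNM1, the choline and ethanolamine transporter gene, to 0.68 for OPI3, which encodes the methyltransferase of the last steps from PE to PC. OPI3 had 251, 247 and 492 CPM in LGC, against 220.1, 208 and 189 CPM in WTC (adjusted p 0.137), with LGC replicate 3 well above the other 5 libraries. CHO2, the methyltransferase gene of the first step, had 518, 492 and 479.6 CPM in LGC, against 374, 370.1 and 455 CPM in WTC (adjusted p 0.145). CHO1, the phosphatidylserine synthase gene, had 219.8, 221 and 245 CPM in LGC, against 225, 221 and 196 CPM in WTC (adjusted p 0.585), values that overlapped. The Kennedy pathway genes of the ethanolamine branch, EKI1, ECT1 and EPT1, were at 0.22, 0.23 and 0.30, and those of the choline branch, CKI1, PCT1 and CPT1, at 0.28, 0.15 and 0.13. The SEs of the 13 genes were between 0.09 and 0.28. For ECT1, EPT1 and CPT1 every mutant library lay above every control library, by small steps. Groups did not overlap for 7 of the 13 genes, against 39.5% of all genes tested. None of the 6 Kennedy pathway genes passed the adjusted threshold (adjusted p 0.101 for EPT1). CDS1 and TAM41, the CDP-diacylglycerol synthase genes, were at -0.07 and 0.23.

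INO1 and INO2 rose, while the inositol list as a whole was split, with 5 fitted values above and 5 below 0 and a median of -0.01. INO1 (YJL153C, chromosome X, 134332-135933), which encodes the first enzyme of inositol synthesis and is the classic target of the Ino2-Ino4 activator, had 90.7, 91.2 and 158 CPM in LGC, against 16.1, 14.05 and 24.9 CPM in WTC. Every mutant library lay above every control library, and replicate 3 was the highest library within each group. INO1 rose by 2.62 ± 0.31 (adjusted p 0.00457), and INO2, the activator's own gene, by 1.36 ± 0.15 (adjusted p 0.0041), with 55.6, 58.2 and 49.4 CPM in LGC, against 18.3, 19.7 and 25.7 CPM in WTC. Both were stable calls. ITR2, the minor inositol transporter gene, fell by 0.60 ± 0.09 (adjusted p 0.00897; adjusted p 0.0634 without WTC replicate 2). The other 7 of the 10 listed genes were not called. Among them were OPI1, the repressor of the circuit, with 28.7, 24.5 and 42.2 CPM in LGC, against 25.3, 23.8 and 29.4 CPM in WTC (adjusted p 0.402), and INO4 at 0.50 ± 0.17 (adjusted p 0.0874). Thus 3 of 10 members were called, against 16.6% of all genes, and without LGC replicate 3, 5 were (2 higher, 3 lower).

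The INO1 upstream region is shown because it holds the core letters bound by Ino2 and Ino4. CATGTG occurs in 4 of the 10 members' windows and in 2 of the 3 called members' windows, against 13.1% of 5728 windows of 500 bases, both strands searched. Genes were listed here for their place in inositol supply and control, so this comparison is no result of these data. The INO1 stretch (minus strand, chrX:136076-136206) holds it once on each strand, as CATGTG and as CACATG in capitals.
INO1: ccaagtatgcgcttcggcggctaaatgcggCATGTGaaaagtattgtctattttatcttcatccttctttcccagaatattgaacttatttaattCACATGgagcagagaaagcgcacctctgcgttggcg

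Part of the genes of protein folding in the ER were higher in the mutant. Lipid imbalance and unfolded proteins in the ER both activate Ire1, whose splicing of HAC1 mRNA switches on chaperone genes. Of 20 listed genes, 10 were called higher and 0 lower, against 9.7% higher among all genes, with a median log2 fold change of 0.80. Without 1 library 2 (WTC replicate 2), 3 (WTC replicate 1), 6 (LGC replicate 2), 7 (LGC replicate 1), 10 (LGC replicate 3) or 12 (WTC replicate 3) were called, all higher. EUG1 (YDR518W, chromosome IV, 1478608-1480161), a protein disulfide isomerase gene, had 129, 136 and 138 CPM in LGC, against 54.2, 57.4 and 60.4 CPM in WTC (1.23 ± 0.09, adjusted p 0.00203). SIL1, a nucleotide exchange factor gene of the ER Hsp70, had 154, 148 and 178 CPM in LGC, against 65.3, 64.96 and 86.3 CPM in WTC (1.15 ± 0.15, adjusted p 0.00621). These 2 were the list's stable calls. LHS1, an ER Hsp70 relative, had 213, 204 and 223 CPM in LGC, against 78.6, 79.1 and 118 CPM in WTC (1.21 ± 0.18, adjusted p 0.00847), with the third control library above the other control libraries. That call missed the threshold in 1 of the 6 fits (adjusted p 0.0505 without WTC replicate 2).

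JEM1, the gene of an ER J protein, rose by 1.22 ± 0.22 (adjusted p 0.0134), DER1, which takes part in the degradation of misfolded ER proteins, by 1.00 ± 0.15 (adjusted p 0.00919), and ULI1, a gene induced by the unfolded protein response, by 2.34 ± 0.39 (adjusted p 0.0113). The calls were lost in 3, 2 and 2 of the 6 fits without 1 library (at most adjusted p 0.0715 without WTC replicate 2, adjusted p 0.0553 without WTC replicate 1 and adjusted p 0.0683 without WTC replicate 2). KAR2, the ER Hsp70 itself, had 4729, 4666 and 4946 CPM in LGC, against 852, 871 and 3799.7 CPM in WTC. It was not called (log2 fold change 1.38 ± 0.59, adjusted p 0.153). WTC replicate 3 lay near the mutant libraries, while the other control libraries were more than 4-fold lower. ERO1, the thiol oxidase gene, had 1653, 1631 and 972 CPM in LGC, against 162, 175 and 981 CPM in WTC and was not called (adjusted p 0.15). HAC1 and IRE1 had log2 fold changes of 0.22 and 0.07 (adjusted p 0.384 and 0.731), and splicing of HAC1 is not visible in counts per gene. A core of the unfolded protein response element, CAGCGTG, occurs in 1 of the 10 called members' windows and in 2 of all 20, against 2.37% of 5728 windows of 500 bases. EUG1 and SIL1 do not hold these letters there.

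WTC replicate 3 stood apart from the other control libraries in heat shock genes, as it did in KAR2 and ERO1. HSP12, a small membrane-associated heat shock gene, had 628, 609 and 950.3 CPM in LGC, against 16.7, 16.1 and 223 CPM in WTC (adjusted p 0.088). SSA4, a stress-induced cytosolic Hsp70 gene, had 3338, 3369 and 3431 CPM in LGC, against 124, 124 and 4343 CPM in WTC (adjusted p 0.576). The summed level of 24 heat shock genes was 44082, 43759 and 43521 CPM in LGC, against 15907, 15779.5 and 53769.6 CPM in WTC. The third control library thus exceeded all the mutant libraries, while its partners lay far below them. The list's median difference between libraries of the same replicate number was 1.57, 1.56 and -0.10 for replicates 1, 2 and 3. In the main fit edgeR called 1 of 24 members higher, HSP31 (0.59 ± 0.14, adjusted p 0.0303), against 9.7% higher among all genes tested. For the ER list the same medians were 0.68, 0.84 and 0.57. The part of these stress transcripts in the ER list's result was not tested. Without WTC replicate 3, 18 of the 24 heat shock genes and 12 of the 20 ER genes were called higher, in a fit that called 20.9% of all genes.

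**Figure D3:**
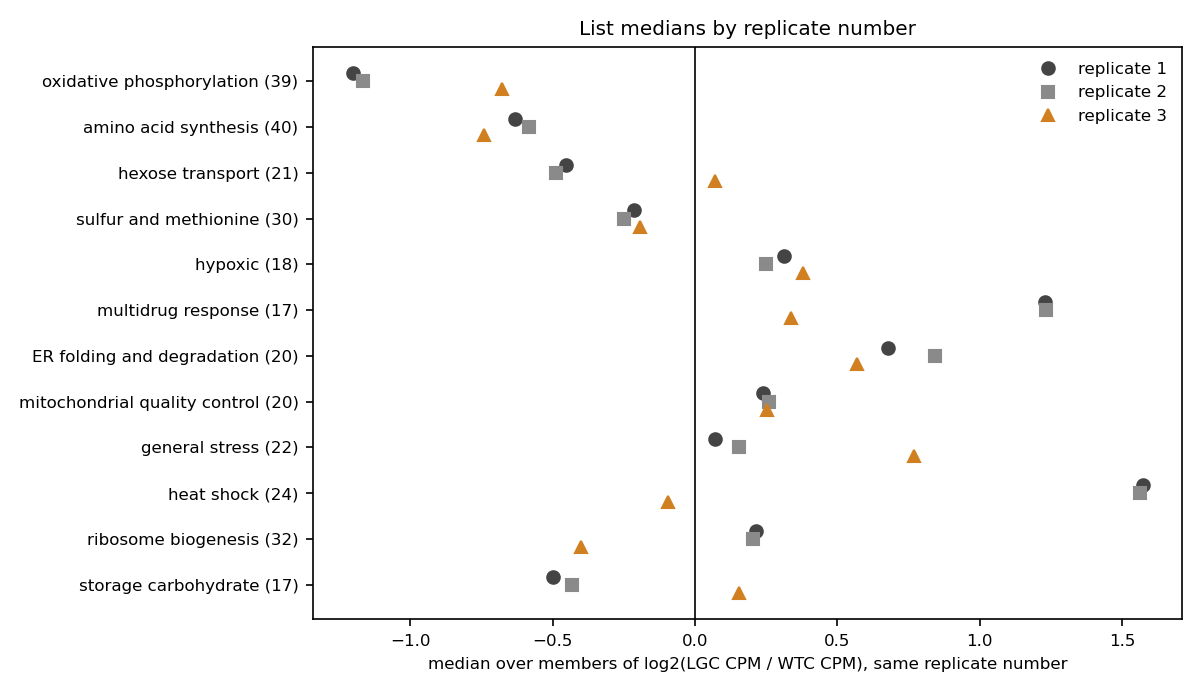
Median, over the members of 12 gene lists, of the log2 ratio of LGC to WTC in libraries of the same replicate number, with the number of tested members in parentheses. The oxidative phosphorylation and amino acid lists lay below 0 and the ER and multidrug lists above 0 for all 3 numbers, whereas the heat shock list was at 1.57, 1.56 and -0.10 and the ribosome biogenesis list at 0.21, 0.20 and -0.40 for replicates 1, 2 and 3.

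Rises and falls outside these lists were also large. OYE3, an NADPH dehydrogenase gene, had 79.6, 80.4 and 121 CPM in LGC, against 11.2, 13.1 and 23.96 CPM in WTC (2.54 ± 0.33, adjusted p 0.00583). SIP18 and GRE1, hydrophilin genes induced by water loss, rose by 3.76 ± 0.61 (adjusted p 0.0112; adjusted p 0.0686 without WTC replicate 2) and 2.83 ± 0.36 (adjusted p 0.00583). YOR338W, YBR200W-A and YGR079W, of unclear function, rose by 3.43, 3.28 and 2.77 (adjusted p 0.0076, 0.00819 and 0.00885), calls lost in 1, 1 and 2 of the 6 fits (adjusted p 0.0513 without WTC replicate 2, adjusted p 0.0538 without WTC replicate 2 and adjusted p 0.055 without WTC replicate 1). YBL100W-B, a retrotransposon gene with near-identical copies elsewhere, had 107, 109.9 and 125 CPM in LGC, against 20.8, 16.97 and 23.7 CPM in WTC (2.48 ± 0.15, adjusted p 0.00125), and how reads were shared among the copies is not given. HXT4, a high-affinity hexose transporter gene with close relatives, fell to 127, 129 and 240.2 CPM in LGC, against 981, 960.3 and 653 CPM in WTC (-2.39 ± 0.31, adjusted p 0.0062). YER053C-A, a small gene, fell by 1.92 ± 0.11 (adjusted p 0.00125), ARO5 (YGL117W) by 2.25 ± 0.22 (adjusted p 0.00282) and TDA6 by 2.24 ± 0.32 (adjusted p 0.00753). ADH5, an alcohol dehydrogenase gene, RTC2 and ICY1 had log2 fold changes of -2.05, -1.96 and -1.87, and their calls were lost in 2, 4 and 3 of the 6 fits (adjusted p 0.0546 without WTC replicate 1, adjusted p 0.0988 without WTC replicate 2 and adjusted p 0.0707 without WTC replicate 2). With the replicate block RTC2 had an adjusted p of 0.0619.

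Iron and oxygen genes were mixed, and their counts stand beside 9.7% called higher and 6.93% lower among all genes tested. TIS11, whose product marks mRNAs of iron-using proteins for decay, had 46.4, 51.7 and 34.1 CPM in LGC, against 8.73, 7.55 and 9.17 CPM in WTC (2.38 ± 0.19, adjusted p 0.00203, a stable call). The iron list had 6 of 21 tested members called higher and 1 lower (2 higher without WTC replicate 1 or 2, 3 without LGC replicate 1 or 2, and 9 higher with 3 lower without LGC replicate 3), among them SIT1, a siderophore transporter gene, at 1.71 ± 0.35 (adjusted p 0.0216, and 0.0536 with the replicate block; adjusted p 0.101 without WTC replicate 2) and FTH1 and FRE6, which act at the vacuole membrane, at 0.75 and 0.75 (adjusted p 0.00658 and 0.00694). FET3 and FTR1, the high-affinity uptake pair, were not called. Of 18 hypoxic and cell wall mannoprotein genes, 8 were called higher and 1 lower, with 1 or 2 higher without LGC replicate 1 or 2 or WTC replicate 1 or 2, and 5 without WTC replicate 3. DAN1, a mannoprotein gene silent with ample oxygen, had 14.4, 16.8 and 8.08 CPM in LGC, against 1.27, 1.93 and 1.67 CPM in WTC (3.00 ± 0.33, adjusted p 0.0041), while TIR3, of the same family, fell to 38.3, 37.1 and 43.98 CPM, against 72.2, 72.9 and 67.9 CPM in WTC (adjusted p 0.00547). ROX1, the repressor of hypoxic genes, rose by 1.02 ± 0.20 (adjusted p 0.0173; adjusted p 0.0845 without WTC replicate 1).

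The strain difference was then set beside that in the other media, which were plain YPD (LGD and WTD), YPD with 2 mM ethanolamine (LGE and WTE) and YPD with 1% tergitol and 0.5 mM lyso-PE (LGL and WTL). These strain differences share no library with the one in choline. Of the 1025 choline calls tested in plain YPD, 620 were called there in the same direction, which is 60.5% of the choline calls and 27.3% of the plain calls, beside 36.8% of all genes called in plain YPD (19.5% higher and 17.3% lower). In ethanolamine 42 of 1027 were (4.09% of the choline calls, 82.4% of the ethanolamine calls; 0.836% of all genes called there, 0.627% higher and 0.209% lower), and in lyso-PE 52 of 1024 (5.08% and 55.3%; 1.52% of all genes, 1.18% higher and 0.34% lower). Of the 160 stable calls, 139 were called the same way in plain YPD, 22 in ethanolamine and 26 in lyso-PE.

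List medians are given for each medium, without a test of the list. The median log2 strain difference of oxidative phosphorylation genes was -1.03 in choline, -0.99 in plain YPD, -0.98 in ethanolamine and -0.36 in lyso-PE. The multidrug list had medians of 0.80, 1.18, 0.69 and 0.50 in the same order of media, and PDR5 itself rose in all 4 (2.86, 3.78, 3.33 and 2.66; adjusted p 0.00241, 0.000848, 0.00396 and 0.0213). The amino acid list was at -0.64 and -0.53 in choline and plain YPD, and at 0.02 and -0.38 in ethanolamine and lyso-PE. The ER list was at 0.80 and 0.57, and at -0.34 and -0.19. Where a gene passed the threshold in one medium and not in another, a difference between the media is stated only where it was tested.

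**Figure D4:**
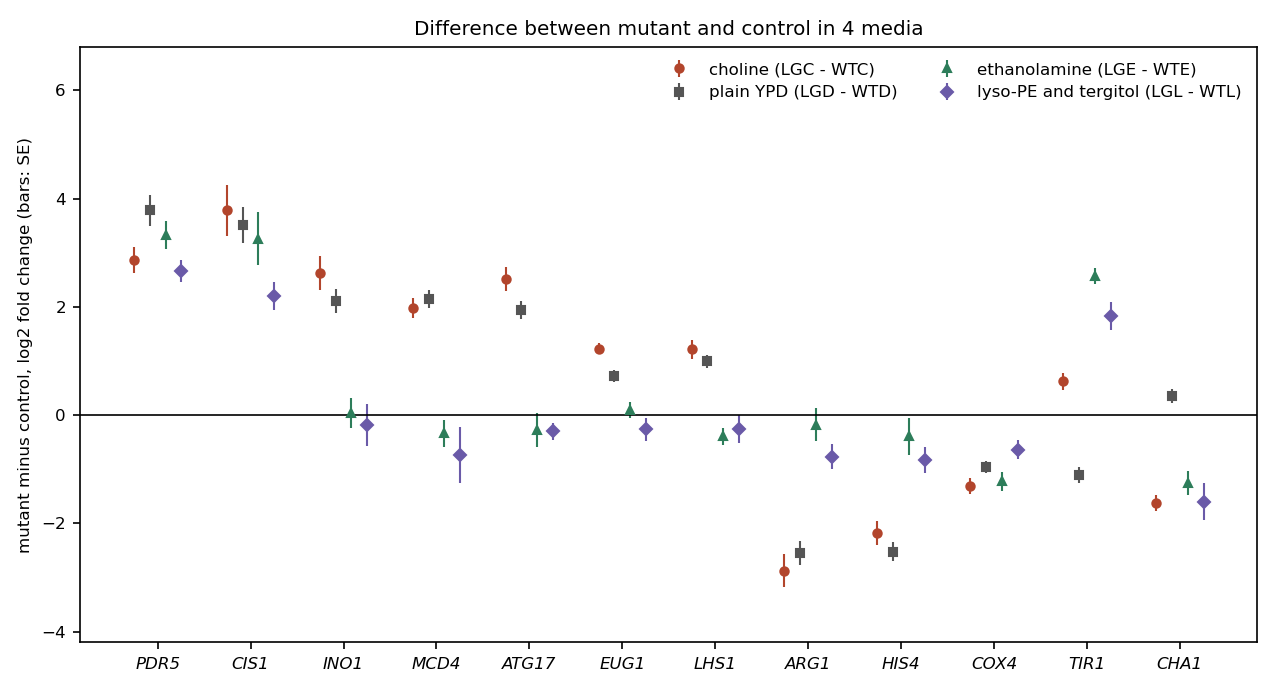
Log2 fold change of mutant over control, with its SE, for 12 genes in choline, plain YPD, ethanolamine, and lyso-PE with tergitol (n = 3 libraries per group). INO1 was at 2.62 in choline, 2.11 in plain YPD and 0.04 in ethanolamine. MCD4 was at 1.97 in choline and -0.34 in ethanolamine, while PDR5 and CIS1 were above 2 in all 4 media. TIR1 was below 0 in plain YPD alone.

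The test of the difference between choline and ethanolamine, (LGC - WTC) - (LGE - WTE), called 34 of 6270 genes (0.542%), 27 higher (0.431%) and 7 lower (0.112%). Ethanolamine can be made into PE without Psd1, and choline cannot. INO1 was among the 34, with a strain difference higher by 2.56 ± 0.43 in choline (adjusted p 0.022), from 2.62 in choline and 0.04 in ethanolamine. So were the ER genes LHS1 (1.59 ± 0.23, adjusted p 0.00964), SIL1 (1.52 ± 0.26, 0.022), EUG1 (1.11 ± 0.16, 0.011) and ULI1 (3.07 ± 0.50, 0.0185), 4 of the 20 on the ER list. ARG1 differed the other way, by -2.72 ± 0.47 (adjusted p 0.0226). In plain YPD the strain differences of INO1, LHS1, SIL1, EUG1 and ARG1 were 2.11, 0.99, 0.93, 0.73 and -2.54. None of them was called for choline against plain YPD (adjusted p 0.417, 0.515, 0.516, 0.0885 and 0.581). Of the 12 fits of the ethanolamine test without 1 library, LHS1 was called in 10, EUG1 in 8, ULI1 in 7, INO1 in 5, SIL1 in 4 and ARG1 in 4. In that order the highest adjusted p were 0.0577, 0.0592, 0.0859, 0.0971, 0.102 and 0.0956. With the replicate block this test called 5 genes, and none of these was among them (adjusted p 0.0588 for INO1, 0.0564 for LHS1 and EUG1, 0.093 for SIL1 and 0.108 for ARG1). In the main fit of this test none of the 39 oxidative phosphorylation genes and none of the 17 multidrug genes was called. Their median differences were -0.02 and 0.30. With 0.542% of all genes called, 0 calls in lists of this size do not tell whether the lists differed between the media.

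MCD4 (YKL165C, chromosome XI, 137932-140691) was chosen after its values were seen, for its link to PE: its product moves phosphoethanolamine from PE to the first mannose of glycosylphosphatidylinositol (GPI) anchors. MCD4 had 456, 469 and 398 CPM in LGC, against 96.3, 99.4 and 141 CPM in WTC. All mutant libraries exceeded all control libraries, and the rise of 1.97 ± 0.18 (adjusted p 0.00242) was a stable call. In plain YPD the difference was 2.15, in ethanolamine -0.34 and in lyso-PE -0.74. Choline differed from ethanolamine by 2.29 ± 0.31 (adjusted p 0.00868), a call lost with the replicate block. GPI13 and LAS21, which encode the transferases for the other mannoses, had log2 fold changes of -0.03 and 0.03 in choline and were not called (adjusted p 0.874 and 0.867). The letters CAGCGTG are not in the MCD4 window.

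ATG17 (YLR423C, chromosome XII, 971917-973170), which encodes a scaffold of autophagosome formation, had 59.2, 64.7 and 89.2 CPM in LGC, against 10.8, 10.7 and 15.7 CPM in WTC (2.51 ± 0.23, adjusted p 0.00242). Choline differed from ethanolamine by 2.77 ± 0.39 (adjusted p 0.00934), a call lost with the replicate block. In plain YPD the strain difference of ATG17 was 1.94, and choline against plain YPD was not called (adjusted p 0.219). SPP382, a splicing factor gene next to ATG17 on the other strand, rose by 1.58 ± 0.14 (adjusted p 0.00242), with a difference from ethanolamine of 1.53 ± 0.19 (adjusted p 0.00565). ATG8, whose product is attached to PE on autophagic membranes, was not called (0.72 ± 0.28, adjusted p 0.119). KDX1, a gene of a kinase-like protein of the cell wall integrity pathway, had 129, 129 and 114 CPM in LGC, against 31.98, 32.9 and 27.04 CPM in WTC and a difference from ethanolamine of 1.5 ± 0.18 (adjusted p 0.00565). The mannosyltransferase gene KTR2, BNA2 of NAD synthesis and the peroxisome gene PEX27, chosen after their values were seen, rose by 1.24, 1.23 and 1.51 in choline (adjusted p 0.00203, 0.00357 and 0.00203). They differed from ethanolamine by 1.02, 1.28 and 1.06 (adjusted p 0.01, 0.00663 and 0.00934), calls lost with the replicate block. Leaving out 1 of the 12 libraries gave 11 to 265 calls for this difference, and adding replicates 1 and 2 together gave 0 in edgeR (217 at an unadjusted p under 0.05). The lowest counts were without WTE replicate 1 or 2 or WTC replicate 2, and the highest without WTE replicate 3.

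The test of the difference between choline and plain YPD, (LGC - WTC) - (LGD - WTD), called 54 of 6254 genes (0.863%), 28 higher (0.448%) and 26 lower (0.416%). The lowest p-values among genes with a mean of at least 50 counts belonged to genes of several functions. NCE103, the carbonic anhydrase gene, was higher in the mutant in choline (194, 195 and 141 CPM in LGC, against 109, 108 and 93.4 CPM in WTC; 0.77 ± 0.15, adjusted p 0.0197) and lower in plain YPD (-1.10 ± 0.09, adjusted p 0.000927), a difference of 1.87 ± 0.18 (adjusted p 0.00181). CHA1 fell in choline and was at 0.36 in plain YPD (-1.98 ± 0.20, adjusted p 0.00181). ECM4, a glutathione transferase gene, had 51.4, 54.01 and 67.3 CPM in LGC, against 21.5, 20.6 and 20.9 CPM in WTC and a strain difference of -0.02 in plain YPD (1.47 ± 0.19, adjusted p 0.00909). TIR1, a mannoprotein gene, differed by 1.73 ± 0.22 (adjusted p 0.00909) and, against ethanolamine, by -1.96 ± 0.22 (adjusted p 0.00496). Its strain difference was 0.62 in choline, -1.11 in plain YPD and 2.56 in ethanolamine. SUL2, a sulfate permease gene, was at -0.10 in choline and -1.41 in plain YPD (1.31 ± 0.15, adjusted p 0.00766).

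Among list members, histone genes HHF2, HTB2, HHF1 and HTB1 had strain differences lower in choline than in plain YPD, by log2 values of -0.76, -1.20, -0.83 and -0.80 (adjusted p 0.0358, 0.0439, 0.0358 and 0.0358). Histone genes come in near-identical pairs whose reads may be shared. The copper transporter genes CTR3 and CTR1, the second overlapped by YPR123C, had overlapping levels in the 2 strains in choline, at 0.08 and -0.03, and strain differences of 3.11 and 1.29 in plain YPD (-3.03 ± 0.54, adjusted p 0.0358; -1.32 ± 0.21, adjusted p 0.0266). The mating genes STE2 and MFA2 (-1.20 and -1.64; adjusted p 0.0438 and 0.017), the hypoxic genes ANB1 and HEM13 (1.71 and 1.61; 0.0337 and 0.0358), HXT5 (1.01; 0.0426) and CYC1 (-1.12; 0.0417) were also called. The number of calls was 4 when WTC replicate 2 was left out and 1472 when LGD replicate 3 was, the extremes over the 12 libraries. With replicates 1 and 2 added together edgeR made 0 calls (380 at an unadjusted p under 0.05). Ribosome biogenesis genes, with a median strain difference of 1.54 and 29 of 32 called higher in plain YPD, had a median of 0.10 in choline and 0 called in edgeR (2 at an unadjusted p under 0.05; 1 by DESeq2's Wald test). Among all genes tested 19.5% were called higher in plain YPD and 9.7% in choline. Without LGC replicate 3, 11 of the 32 were called higher in choline, with a median of 0.37, in a fit that called 36.2% of all genes. The median difference of the 32 between the media was -1.41, and 0 of them were called in the test between media, against 0.863% of all genes.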

How the data were processed

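Total RNA of yeast was sequenced after hot phenol extraction, per the labels' protocols. The deposited tables give, per the file headers, whole read counts per gene, a signal that equals the counts divided by 1 factor per library, FPKM, and the authors' own comparisons as p-values and log2 fold changes. Only the deposited counts were used. STAR 2.5, HTSeq 0.6.1, DESeq2 and CASAVA are named in the submitters' processing notes, without roles. The genome build, the annotation and the strandedness are not given in the sources used here, and genes with overlapping neighbours are uncertain. LGC and WTC counts were joined by identifier. Of the genes left out, 107 are listed for LGC alone (at most 31 counts in an LGC library) and 50 for WTC alone (at most 11). Symbols for 5924 genes came from RefSeq's R64 table, which gives 5915 genes the deposited start and end.

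The main test was edgeR 4.0.16's quasi-likelihood F test in R 4.3.3 (TMM, filterByExpr, Benjamini-Hochberg, threshold 0.05), with SEs derived from the F statistic. Each strain difference used 6 libraries and each test between media 12. The test was also tried on simulated data. Alternatives were DESeq2 1.42.0's Wald test, other scalings, filters and thresholds, 24 libraries in 1 fit, leaving out libraries, summing replicates 1 and 2, and the replicate block. Same-numbered LGC and WTC libraries deviated together from their group means, but weakly (correlations across genes 0.16, 0.17 and 0.22). Between LGC and LGD these correlations were 0.498, 0.52 and 0.674, and between WTC and WTD -0.306, -0.32 and -0.571. Such values do not show that equal numbers are pairs, and the labels name no shared day, so the block is an alternative only.

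The 26 gene lists, their members and the tests were chosen with earlier results of these data known. Genes were named by rule: the 12 largest rises and falls of called genes whose groups did not overlap and whose mean was 50 counts or more, up to 4 list members with the smallest p, all phospholipid and inositol genes, PSD1, the markers, and 5 genes per test between media. Other named list members, MCD4, GPI13, LAS21, ATG8, KTR2, BNA2, PEX27, the division of lists into complexes and pathways, and the 4 upstream motifs, the genes examined for them and their window were chosen after values were seen.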

Additional observations from a re-analysis of the deposited data

Results flagged for a closer look

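The strain difference in choline differed from that in plain YPD for 54 genes by the test of the difference itself (edgeR, adjusted p under 0.05). For named genes the difference, choline minus plain YPD on the log2 scale, was 1.87 for NCE103, 1.73 for TIR1, 1.71 for ANB1, 1.61 for HEM13, 1.47 for ECM4, 1.31 for SUL2 and 1.01 for HXT5. It was below 0 for CTR3 (-3.03), CHA1 (-1.98), MFA2 (-1.64), CTR1 (-1.32), STE2 (-1.20), HTB2 (-1.20), CYC1 (-1.12), HHF1 (-0.83), HTB1 (-0.80) and HHF2 (-0.76). NCE103, TIR1, SUL2 and CHA1 were called in each of the 12 fits that left out 1 library. Histone, STE2, HXT5, CYC1 and CTR3 calls were made in at most 3 of the 12.

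The strain difference in choline differed from that in ethanolamine for 34 genes by the same kind of test. It was higher in choline for ULI1 (3.07), ATG17 (2.77), INO1 (2.56), MCD4 (2.29), YBL100W-B (2.22), YDR034C-D, another retrotransposon gene (1.86), LHS1 (1.59), SPP382 (1.53), SIL1 (1.52), KDX1 (1.5), BNA2 (1.28), EUG1 (1.11), PEX27 (1.06) and KTR2 (1.02). It was lower in choline for ARG1 (-2.72) and TIR1 (-1.96). MCD4, ATG17, SPP382, KDX1, BNA2, PEX27, TIR1 and both retrotransposon genes were called in each of the 12 fits that left out 1 library, INO1 in 5 and ARG1 in 4. Strain differences in plain YPD were 1.94 for ATG17, 2.11 for INO1, 2.36 for YBL100W-B and -2.54 for ARG1. For these genes the difference between choline and plain YPD was not called. No group has enough libraries for a test of single outlying samples.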

How the results depend on the processing

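In LGC against WTC, 1027 calls became 0 with replicates 1 and 2 summed, 171 to 2248 without 1 library, 3986 without replicate 3 of each group, 1708 with DESeq2's Wald test, 255 at an adjusted p under 0.01, 310 at 2-fold or more, and 160 as stable calls, an alternative added after the data were seen. Other scalings, filters, the replicate block (1288) and all 24 libraries in 1 fit (1197) gave totals within 1.5 times, though the block moved the lower calls to 673, against 428. For choline minus plain YPD, 54 became 0 with summing, 4 to 1472 without 1 library, 3555 without replicate 3 of each group, 691 with DESeq2 and 430 with the block. For choline minus ethanolamine, 34 became 0, 11 to 265, 3695, 272 and 5 under the same alternatives. Summing and leaving out libraries change the number of libraries, and otherwise the cause was not tested. Of 186 named genes 108 were called; 52 of these lost the call in a fit without 1 library and all 108 with summing. In LGC against WTC the block ended 4 named calls, those of RTC2, SIT1, RPN4 and TIR1 (adjusted p 0.0619, 0.0536, 0.0593 and 0.0606), and no other there, while 15 named genes not called gained one. In the tests between media, deviations of same-numbered libraries correlated between groups from -0.639 to 0.674. Replicate 3 stood apart from the other libraries of LGC and of WTC, so these values do not tell whether equal numbers are pairs. The 5 calls against ethanolamine with the block were YBL100W-B, YDR034C-D, TIR1, KDX1 and SPP382. INO1 (adjusted p 0.0588), ATG17, LHS1, EUG1 and MCD4 (0.0564 each), SIL1 (0.093) and ARG1 (0.108) were not among them. Without replicate 3 of each group 2 genes that were not called turned round and were called, ITR1 at -0.21 and HEM13 at -0.12 (0.16 and 0.05 with all libraries), and 13 other uncalled genes changed sign in some setting without a call. Adding genes listed in only 1 of the joined tables was not run, since no other table holds LGC or WTC counts. At these depths low genes such as MF(ALPHA)1, under 1.1 CPM in every library, rest on few counts.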

Other observations

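Some sulfur genes, not described above, were lower. Of 30 tested sulfur and methionine genes 6 were called lower and 3 higher (median -0.22), against 6.93% lower and 9.7% higher among all genes, with 1 lower and 0 higher without LGC replicate 1 or 2 or WTC replicate 1 or 2, and 10 lower and 5 higher without LGC replicate 3. MUP1, the methionine permease gene, had 152, 149 and 148 CPM in LGC, against 300.3, 299.8 and 253 CPM in WTC (-0.93 ± 0.11, edgeR adjusted p 0.00454, a stable call), and MET6, the methionine synthase gene, had 139.9, 135 and 118 CPM in LGC, against 368, 346 and 206 CPM in WTC (-1.23 ± 0.23, adjusted p 0.0152; adjusted p 0.0802 without WTC replicate 2). In plain YPD the list's median strain difference was -0.61, with 18 of 30 lower, and in choline it was -0.22. Of 21 hexose transport and glucose sensing genes 1 was called higher and 2 lower (14.3%, against 16.6% of all genes), and 3 higher and 10 lower without LGC replicate 3. HXT5, a transporter gene of slowly growing cells, had 88.2, 85.98 and 99.8 CPM in LGC, against 38.6, 38.1 and 44.4 CPM in WTC (1.18 ± 0.11, adjusted p 0.00261), opposite to the fall of HXT4. GPD1, of glycerol synthesis, fell by 0.74 ± 0.15 (adjusted p 0.0193; adjusted p 0.0911 without WTC replicate 1). RPN4, the gene of the proteasome activator, had 525, 525 and 291 CPM in LGC, against 120.1, 114 and 224 CPM in WTC (1.55 ± 0.34, adjusted p 0.027; adjusted p 0.118 without WTC replicate 1) and was the member called of 33 proteasome genes, whose median was -0.13. Without LGC replicate 3, 16 proteasome genes were called lower. Of 23 ergosterol genes 1 was called lower, ERG24 (-0.65 ± 0.17, adjusted p 0.0413; adjusted p 0.157 without WTC replicate 2). In edgeR 0 of 17 storage carbohydrate genes (1 at an unadjusted p under 0.05; 1 by DESeq2; 11 lower without LGC replicate 3) and 0 of 9 copper genes (5; 3 by DESeq2; 2 higher and 1 lower without LGC replicate 3) were called. Of 22 general stress genes 3 were called higher and 1 lower (18.2%, near the 16.6% of all genes). The counts were 7 and 1 with the replicate block, and 3 and 4 without LGC replicate 3. Of 19 genes of phosphatidate, lysolipid and cardiolipin metabolism 2 were called higher and none lower (10.5%, below the 16.6% of all genes). These were TAZ1 (0.45 ± 0.10, adjusted p 0.0233, and 0.157 without WTC replicate 2) and MDM35 (0.41 ± 0.11, adjusted p 0.0412, and 0.195 without WTC replicate 2).

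Some mating genes of both types were called, beside 9.7% called higher and 6.93% lower among all genes tested. Of 6 genes active in MATa cells 3 were called lower: AGA2 had 227, 224 and 248 CPM in LGC, against 459, 461 and 401 CPM in WTC (-0.92 ± 0.12, adjusted p 0.00583), STE2, the alpha-factor receptor gene, fell by 0.70 ± 0.13 (adjusted p 0.0166; adjusted p 0.101 without WTC replicate 2) and MFA2 by 0.98 ± 0.16 (adjusted p 0.0119; adjusted p 0.0716 without WTC replicate 2). Of 4 genes active in MATalpha cells 2 were called higher, STE3 with 21.7, 22.00 and 33.2 CPM in LGC, against 7.66, 8.82 and 8.86 CPM in WTC (1.6 ± 0.20, adjusted p 0.00583) and MF(ALPHA)1, at 1.01, 0.658 and 0.965 CPM in LGC, against 0.333, 0.11 and 0.26 CPM in WTC (adjusted p 0.0412; adjusted p 0.164 without WTC replicate 2). STE3 overlaps a gene on the opposite strand. The summed level of the MATalpha genes was 114, 114 and 129.9 CPM in LGC, against 90.6, 101 and 81.1 CPM in WTC. Of 14 pheromone-induced genes SST2 (-0.87 ± 0.09, adjusted p 0.00366) and PRM1 (-0.55 ± 0.11, adjusted p 0.0181; adjusted p 0.0789 without LGC replicate 1) were called lower. Of 10 histone genes 3 were called lower, HTA2 with 153, 154 and 107 CPM in LGC, against 327, 288 and 257 CPM in WTC (-1.07 ± 0.18, adjusted p 0.0112; adjusted p 0.0618 without WTC replicate 2), HTB2 and HHF2, and none higher. None was called without WTC replicate 1 or 2, and 7 were called lower without WTC replicate 3.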
